A study of Mus musculus with 2 samples.

Results

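Apoe, Trem2, Lpl, Fabp4, Fabp5, Gpnmb, Spp1, Cd36, Plin2 and Lgals3 are 10 genes that mark lipid-associated macrophages, and they were read here across the myeloid cells of TSA tumours. The 10 genes were chosen by symbol from the 27998 genes of the deposited tables, and all 10 had a row. The tumours were grown under the skin of BALB/c mice from TSA, a mammary adenocarcinoma line of that strain. Tumours of 3 untreated mice were pooled for 1 library. The other library pooled tumours of 3 mice whose drinking water held 0.5% NAM (nicotinamide, a vitamer of niacin) for 10 days. Leukocytes were enriched on magnetic beads by CD45 and sequenced as droplets with 10x Genomics 3′ chemistry. Because each group was 1 library, no test was made, and an effect of NAM and a difference between library batches cannot be told apart. All intervals are exact 95% intervals, upper limits of a share at 0 are 3 counts of the total, and both cover counting error only.

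Lipid-associated macrophages are tissue macrophages that take up, store and export lipid, and they are known from adipose tissue, atherosclerotic plaques and tumours. Trem2 is a surface receptor for lipids and lipoproteins that signals through the adaptor Tyrobp. Around it work carriers and enzymes that deliver lipid (Apoe, Lpl), a scavenger receptor (Cd36), cytosolic fatty acid chaperones (Fabp4, Fabp5), a coat protein of lipid droplets (Plin2), and the lysosomal or secreted proteins Gpnmb, Spp1 (osteopontin) and Lgals3 (galectin-3).

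Depth was given by UMIs, unique molecular identifiers that count RNA molecules. There were 2922 untreated cells with a median of 9056 UMIs and 3276 NAM cells with a median of 9128. The libraries shared 11 cell barcodes. Cells were assigned to gates by UMIs of marker genes that are not among the 10 members. The macrophage gate, defined by C1q genes with at least 1 UMI of Adgre1, Csf1r or Fcgr1, held 1993 untreated and 2196 NAM cells. Within it, cells with Vcam1 and Dnase1l3 UMIs numbered 246 and 239, cells with Mmp12 and Hmox1 UMIs numbered 93 and 158, proliferating cells numbered 203 and 191, and the remaining cells numbered 1445 and 1586. The Mmp12 Hmox1 macrophages were 3.18% (2.58 to 3.89, Clopper-Pearson) of all untreated cells and 4.82% (4.11 to 5.61) of all NAM cells. Outside the macrophages there were 92 and 108 osteoclast-like cells, 174 and 191 Ly6c2 monocytes, 31 and 35 Cd209a dendritic cells, 23 and 26 type 1 dendritic cells, 12 and 14 mature dendritic cells, and 245 and 292 lymphocytes, in which macrophage genes such as Apoe and Trem2 served as the measure of free RNA.

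The gates carried markers that had not been used to set them. Osteoclast-like cells, gated on Ctsk, Acp5 and Mmp9, held 1190 and 1246 CPM (UMIs of a gene per 1000000 UMIs of the gate) of the proton pump subunit Atp6v0d2, against 13.6 and 9.47 CPM in all macrophages. Ocstamp, a gene of osteoclast fusion, stood at 298 and 311 CPM there, whereas Calcr, the calcitonin receptor of mature osteoclasts, was at 0 and 2.20 CPM. Flt3, a receptor of dendritic cells, was between 29.2 and 145 CPM in the 3 dendritic gates of both libraries and at most 0.605 CPM in all macrophages. Of 5 adipocyte markers, Adipoq, Plin1, Lep and Cidec were at 0 in every gate of both libraries, and Car3 summed to at most 3 UMIs in a gate. Median depth ran from 4385 UMIs in NAM lymphocytes to 16768 in untreated osteoclast-like cells, so shares of cells are given after each cell was thinned to 3000 UMIs.

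The promoters of Trem2, Plin2 and Spp1 are shown first, because these members were high in the Mmp12 Hmox1 macrophages but with different spread over cells, from most macrophages (Trem2) to few cells (Spp1). The sequences are RefSeq's (GRCm38.p6), 5′ to 3′ on the strand of the gene, and run from 250 to 2 bases before the start site. They cover chr17:48346151-48346399 (plus) for Trem2, chr4:86670061-86670309 (minus) for Plin2 and chr5:104434861-104435109 (plus) for the upstream start of Spp1, and overlap no exon of GENCODE vM21. Capitals mark matches on either strand to the letters of 5 motifs.
Trem2: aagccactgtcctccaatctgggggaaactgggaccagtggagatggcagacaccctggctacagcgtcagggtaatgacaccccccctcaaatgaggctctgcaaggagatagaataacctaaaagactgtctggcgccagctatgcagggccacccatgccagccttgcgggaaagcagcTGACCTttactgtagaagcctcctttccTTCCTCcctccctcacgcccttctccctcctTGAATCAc
Plin2: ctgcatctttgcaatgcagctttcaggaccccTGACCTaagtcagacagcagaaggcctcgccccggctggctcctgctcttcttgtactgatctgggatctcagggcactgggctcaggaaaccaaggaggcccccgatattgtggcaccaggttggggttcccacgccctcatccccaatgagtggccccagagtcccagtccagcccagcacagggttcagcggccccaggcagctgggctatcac
Spp1: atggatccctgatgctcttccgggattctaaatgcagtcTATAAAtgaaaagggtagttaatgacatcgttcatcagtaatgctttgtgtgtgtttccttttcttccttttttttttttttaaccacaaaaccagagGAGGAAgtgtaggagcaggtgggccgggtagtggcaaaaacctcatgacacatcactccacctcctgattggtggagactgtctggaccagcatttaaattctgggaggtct
The activator AP-1 was searched as TGANTCA, which the Trem2 window held 9 bases before the start site and which 6.75% of 32851 promoter windows of 250 bases held. PU.1, a transcription factor of myeloid cells, was searched as GAGGAA and matched 40 bases before the start of Trem2 and 113 bases before that of Spp1, against 23.3% of windows. The core hexamer of nuclear receptor sites, AGGTCA, was found 68 bases before the start of Trem2 and 218 bases before that of Plin2, against 14.0% of windows. The TATA box was searched as TATAAA, letters that matched 211 bases before the start of Spp1, against 12.4% of windows. The E-box CACGTG had no match in these 3 windows and was in 6.02% of all. A match of letters is a description and not a binding site. Promoter windows were at hand for 7 of the 10 members, and not for Lpl, Fabp4 and Fabp5. Among the windows not printed, those of Gpnmb, Lgals3 and the downstream start of Spp1 matched none of the 5 motifs. Those of Apoe and Cd36 each held a match.

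Apoe encodes apolipoprotein E, the lipoprotein component with which macrophages export cholesterol, and lies at chr7:19696109-19699188 on the minus strand (GRCm38, GENCODE vM21). Across all macrophages it stood at 16055 CPM (16001 to 16109) in the untreated library and 15096 CPM (15046 to 15146) in the NAM library. It was highest in the Vcam1 Dnase1l3 macrophages, at 23069 and 23485 CPM. The order of the gates was the same in both libraries down to the Ly6c2 monocytes. Mmp12 Hmox1 macrophages followed the remaining macrophages with 11258 and 11456 CPM, proliferating macrophages held 8663 and 7278 CPM, and monocytes held 4025 and 4570 CPM. Osteoclast-like cells were 9.36-fold and 13.2-fold below all macrophages, with 1715 and 1147 CPM. Type 1 dendritic cells (584 and 494 CPM) and mature dendritic cells (693 and 525 CPM) had intervals that overlapped with those of lymphocytes (666 and 527 CPM), so Apoe in these cells was not above the free RNA background.

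Lpl, the lipase that frees fatty acids from lipoproteins (chr8:68880491-68907448, plus strand), went with another gate. Osteoclast-like cells held 368 CPM (340 to 398) without NAM and 246 CPM (224 to 270) with it. All macrophages held 22.3 and 13.6 CPM, which made the osteoclast-like level 16.5-fold and 18.1-fold higher. After thinning, 53.3% and 48.1% of osteoclast-like cells had an Lpl UMI, against 3.51% and 2.82% of macrophages and 0.816% and 0.342% of lymphocytes. The Mmp12 Hmox1 macrophages were above the remaining macrophages for Lpl in the untreated library only, with log2 differences of 0.90 (0.42 to 1.36) there and -0.11 (-0.86 to 0.56) with NAM. The 5 richest cells held 73.3% of the 45 Lpl UMIs of that gate without NAM.

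Cd36, the scavenger receptor and fatty acid transporter (chr5:17781690-17888801, minus strand), showed the reverse of Lpl in osteoclast-like cells, where it had 1 and 2 UMIs in all. Its highest level was in Mmp12 Hmox1 macrophages, with 70.5 CPM (55.9 to 87.7) and 54.0 CPM (44.1 to 65.5). Type 1 dendritic cells came next with 58.1 and 48.4 CPM, and their intervals overlapped with those of the Mmp12 Hmox1 macrophages in both libraries. The remaining macrophages held 17 and 19.2 CPM and the Vcam1 Dnase1l3 macrophages 8.55 and 5.69 CPM. Lymphocytes had 1 Cd36 UMI in each library.

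Trem2, the receptor of the programme (chr17:48346401-48354147, plus strand), was found across the macrophage gates rather than in a small subset. All macrophages held 435 CPM (426 to 444) and 428 CPM (419 to 436). After thinning, 64.1% and 63.9% of macrophages had a Trem2 UMI, and without thinning 88.0% and 89.6%. In lymphocytes, at median depths of 4584 and 4385 UMIs against 9844 and 9857 in macrophages, the thinned shares were 2.45% and 5.48%. The level was highest in Mmp12 Hmox1 macrophages, at 573 CPM (530 to 619) and 594 CPM (560 to 629), which was 1.26-fold and 1.34-fold that of the remaining macrophages. Proliferating macrophages (397 and 357 CPM) and osteoclast-like cells (389 and 316 CPM) had overlapping intervals in both libraries and were not ordered. Vcam1 Dnase1l3 macrophages, highest in Apoe, were the lowest of the 4 macrophage gates in Trem2, at 310 and 292 CPM. Ly6c2 monocytes held 109 and 118 CPM, and 23.0% and 19.9% of them had a UMI after thinning. Type 1 dendritic cells, with 5.06 and 9.68 CPM, did not exceed the lymphocyte levels of 8.42 and 17.6 CPM.

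The fatty acid chaperones differed in how widely they were found. Fabp4, the form of adipocytes and of some macrophages (chr3:10204088-10208576, minus strand), had 75 and 105 UMIs in all macrophages together. In Mmp12 Hmox1 macrophages it reached 31.7 CPM (22.2 to 43.9) and 33.8 CPM (26.1 to 43.0), against 1.16 and 1.53 CPM in the remaining macrophages, but the 5 richest cells held 86.1% and 90.8% of these UMIs. Fabp4 was thus a feature of a few cells of that gate, not of the gate. Fabp5 (chr3:10012548-10016607, plus strand) was found in 32.7% and 32.9% of thinned macrophages, and in 18.0% and 20.9% of lymphocytes. In Mmp12 Hmox1 macrophages it stood at 912 CPM (857 to 969) and 751 CPM (713 to 790), or 4.09-fold and 3.67-fold the remaining macrophages. There 8 of 93 and 6 of 158 cells had 10 or more Fabp5 UMIs of 3000 and held 57.6% and 26.0% of the UMIs, and the other cells of the gate, at 426 and 580 CPM, were still above the remaining macrophages. Mature dendritic cells were below this gate in the untreated library, with 538 CPM (410 to 694), and overlapped with it in the NAM library, with 848 CPM (668 to 1062), and 9 of 12 and 11 of 14 of these cells had a UMI after thinning. Cd209a and type 1 dendritic cells held between 13.4 and 45.5 CPM, so the dendritic gates differed from each other in this gene.

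Plin2, the droplet coat protein (chr4:86648386-86670060, minus strand), was highest in Mmp12 Hmox1 macrophages, with 829 CPM (777 to 884) and 867 CPM (825 to 909). Ly6c2 monocytes were second in both libraries at 522 and 614 CPM, above the 298 and 273 CPM of the remaining macrophages. After thinning, 72.0% and 70.9% of Mmp12 Hmox1 macrophages and 63.8% and 63.4% of monocytes had a Plin2 UMI, against 11.8% and 12.0% of lymphocytes. Osteoclast-like cells, at 109 and 83.0 CPM, held less of it than any macrophage gate.

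Gpnmb, a transmembrane glycoprotein of lysosome-rich cells (chr6:49036546-49070929, plus strand), was hardly detected. All macrophages together had 16 and 13 UMIs, or 0.763 and 0.562 CPM. Of the 13 NAM UMIs, 9 came from Mmp12 Hmox1 macrophages and 7 of these from 1 cell. No other gate exceeded 2.38 CPM in either library, and no fold was computed for Gpnmb between libraries.

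Spp1 (chr5:104435118-104441050, plus strand) was high in Mmp12 Hmox1 macrophages, at 2101 CPM (2017 to 2187) and 2112 CPM (2048 to 2178). Ly6c2 monocytes held 2168 CPM without NAM, with an interval that overlapped with that of the Mmp12 Hmox1 macrophages, and 963 CPM with NAM. These levels came from few cells. In the Mmp12 Hmox1 gate 12 of 93 and 19 of 158 cells (12.9%, 6.85 to 21.5, and 12.0%, 7.40 to 18.1) had 10 or more Spp1 UMIs of their 3000, and they held 83.4% and 80.5% of its Spp1 UMIs. The other cells of that gate held 423 and 465 CPM. The minimum of 10 UMIs was chosen after Spp1 values had been seen. Below that minimum, 27.0% and 25.6% of all macrophages had a Spp1 UMI, against 26.5% and 27.3% of lymphocytes, but the lymphocyte share cannot be taken as free RNA for this gene. Mature dendritic cells had 0 Spp1 UMIs without NAM (up to 33.7 CPM) and 22.3 CPM (2.70 to 80.6) with it. The macrophage gates differed in the share, with 45.7% and 38.8% in Mmp12 Hmox1 macrophages, 38.3% and 41.3% in proliferating macrophages (401 and 365 CPM), and 15.5% and 12.6% in Vcam1 Dnase1l3 macrophages. Lymphocytes below the minimum held 324 and 268 CPM. Vcam1 Dnase1l3 macrophages were lowest of the macrophage gates, with 1 cell of 246 and 1 of 239 at 10 or more UMIs.

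**Figure D1:**
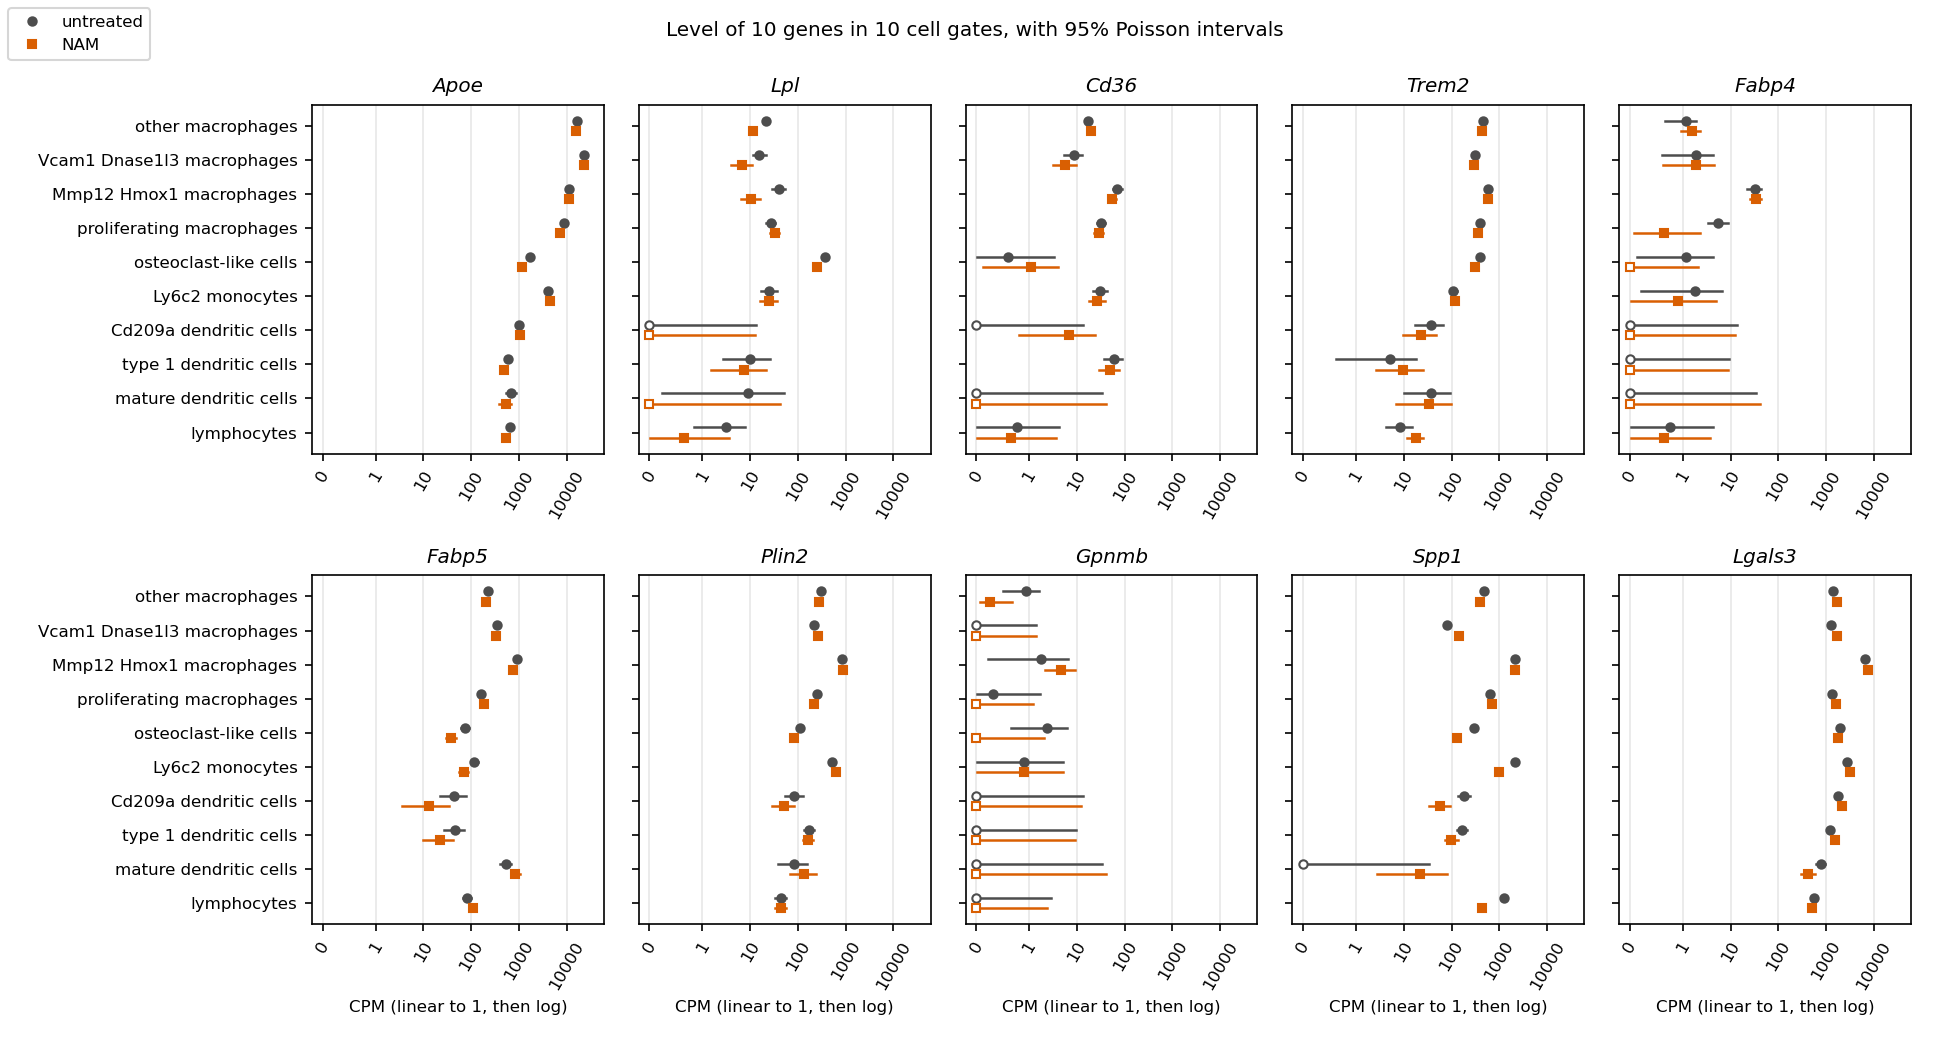
Level of each member in CPM (horizontal axis, linear to 1 and logarithmic above) in 10 gates, for the untreated library (grey circles) and the NAM library (orange squares), with 95% Poisson intervals as bars and open symbols for levels of 0. Apoe peaks in Vcam1 Dnase1l3 macrophages, Lpl in osteoclast-like cells, and Trem2, Cd36, Fabp4, Plin2 and Lgals3 in Mmp12 Hmox1 macrophages of both libraries. The Cd36 intervals of that gate overlap with those of type 1 dendritic cells.

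Lymphocytes also held cells rich in Spp1. Of untreated lymphocytes 19 of 245 (7.76%, 4.73 to 11.8) and of NAM lymphocytes 10 of 292 (3.42%, 1.65 to 6.21) had 10 or more UMIs, and these held 77.3% and 41.0% of the Spp1 UMIs of the gate. No such cell had a Trem2 UMI after thinning, 31.6% and 30.0% had a UMI of C1qa, and 78.9% and 90.0% had a UMI of the T cell receptor subunit Cd3g. The corresponding shares in the other lymphocytes were 2.65% and 5.67% for Trem2, 39.8% and 44.7% for C1qa, and 80.5% and 87.6% for Cd3g. The lysozyme gene Lyz2 had a UMI in 68.4% and 70.0% of the Spp1-rich lymphocytes and in 77.4% and 70.2% of the others. Apoe and Lgals3 went the other way, with Apoe in 100% and 80.0% against 85.0% and 73.0%, and Lgals3 in 78.9% and 100% against 59.3% and 63.5%. The macrophage genes therefore did not share a direction, on 19 and 10 cells chosen by their values.

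**Figure D2:**
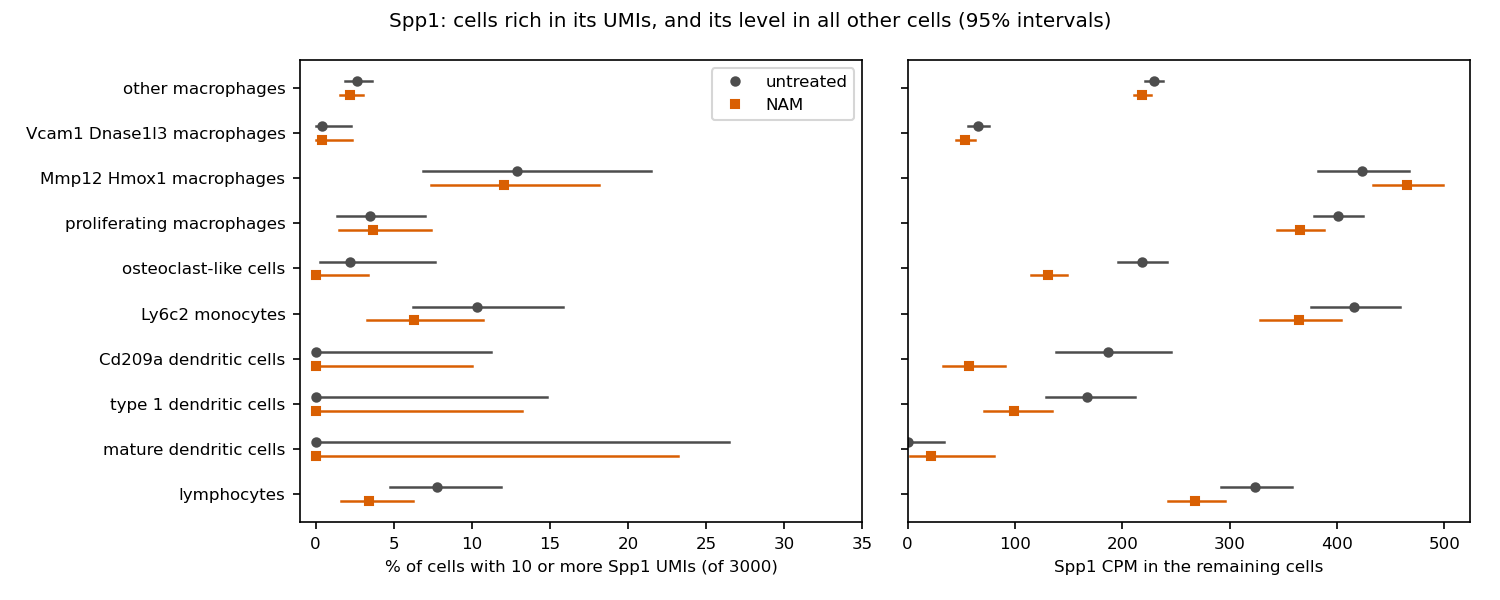
Left, percentage of cells with 10 or more Spp1 UMIs after thinning to 3000 UMIs, with Clopper-Pearson intervals. Right, Spp1 CPM in the remaining cells, with Poisson intervals. Untreated values are grey circles and NAM values orange squares. Spp1-rich cells make up 12.9% and 12.0% of Mmp12 Hmox1 macrophages, 10.3% and 6.28% of Ly6c2 monocytes, and 7.76% and 3.42% of lymphocytes.

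Lgals3 (chr14:47367751-47386160, plus strand) was highest in Mmp12 Hmox1 macrophages, at 6582 CPM (6433 to 6733) and 7386 CPM (7265 to 7508), or 4.64-fold and 4.32-fold the remaining macrophages. Ly6c2 monocytes followed at 2690 and 3133 CPM. Lgals3 was found in more cells of the gate than Spp1: the thinned median was 12 and 13 UMIs a cell, and 96.8% and 100% of cells had a UMI. Its level was uneven too, since 29 of 93 and 59 of 158 cells with 20 or more UMIs held 69.9% and 74.4% of the UMIs, and the other cells held 3063 and 3089 CPM. All macrophages held 1671 and 2200 CPM, and lymphocytes 546 and 511 CPM.

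In both libraries 5 of the 10 members (Cd36, Trem2, Fabp4, Plin2 and Lgals3) had their highest level in Mmp12 Hmox1 macrophages. Fabp5, Spp1 and Gpnmb (on 9 UMIs) did so in 1 library each. For Cd36 the intervals overlapped with those of type 1 dendritic cells in both libraries, and Fabp4 rested on a few cells of the gate. This order is a description, since the markers of that gate are genes of related macrophage states.

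How far the members went together in the same cells was read next. Trem2, Fabp5, Plin2, Spp1 and Lgals3 all had a UMI in 3.31% and 3.51% of thinned macrophages, in 11.8% and 12.7% of Mmp12 Hmox1 macrophages, in 1.15% and 1.05% of Ly6c2 monocytes and in 0 of 245 and 0 of 292 lymphocytes, which allows shares of up to 1.22% and 1.03%. Most macrophages held 2 or 3 of the 5, at 30.2% and 32.8% of untreated and 30.6% and 32.7% of NAM cells. The 5 genes were thus seldom captured together outside the Mmp12 Hmox1 gate. Each of the 5 was also captured by itself in a larger share of cells there than in all macrophages. The joint share expected from these shares was not computed. The difference between gates therefore does not show whether the genes went together beyond their own capture.

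Across cells, Apoe and Spp1 were inversely related in macrophages, with Spearman's rho of -0.26 over 1993 untreated cells and -0.26 over 2196 NAM cells. Mean Apoe per 3000 UMIs was 57.8 and 55.1 in macrophages with no Spp1 UMI, 39.9 and 36.3 in those with 1 to 9, and 24.2 and 24.2 in those with 10 or more. Mean Lgals3 went the other way, from 3.96 and 5.11 to 12.0 and 18. Apoe and Lgals3 had rho of -0.21 and -0.13. Plin2 and Lgals3 had rho of 0.19 in both libraries, and 0.53 (93 cells) and 0.65 (158 cells) within the Mmp12 Hmox1 gate. Trem2 stood apart from these contrasts, with rho between 0.05 and 0.13 for each of the other 5 members in macrophages. These correlations are over cells that share a library, counts are sparse, and rho is given as a description only.

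**Figure D3:**
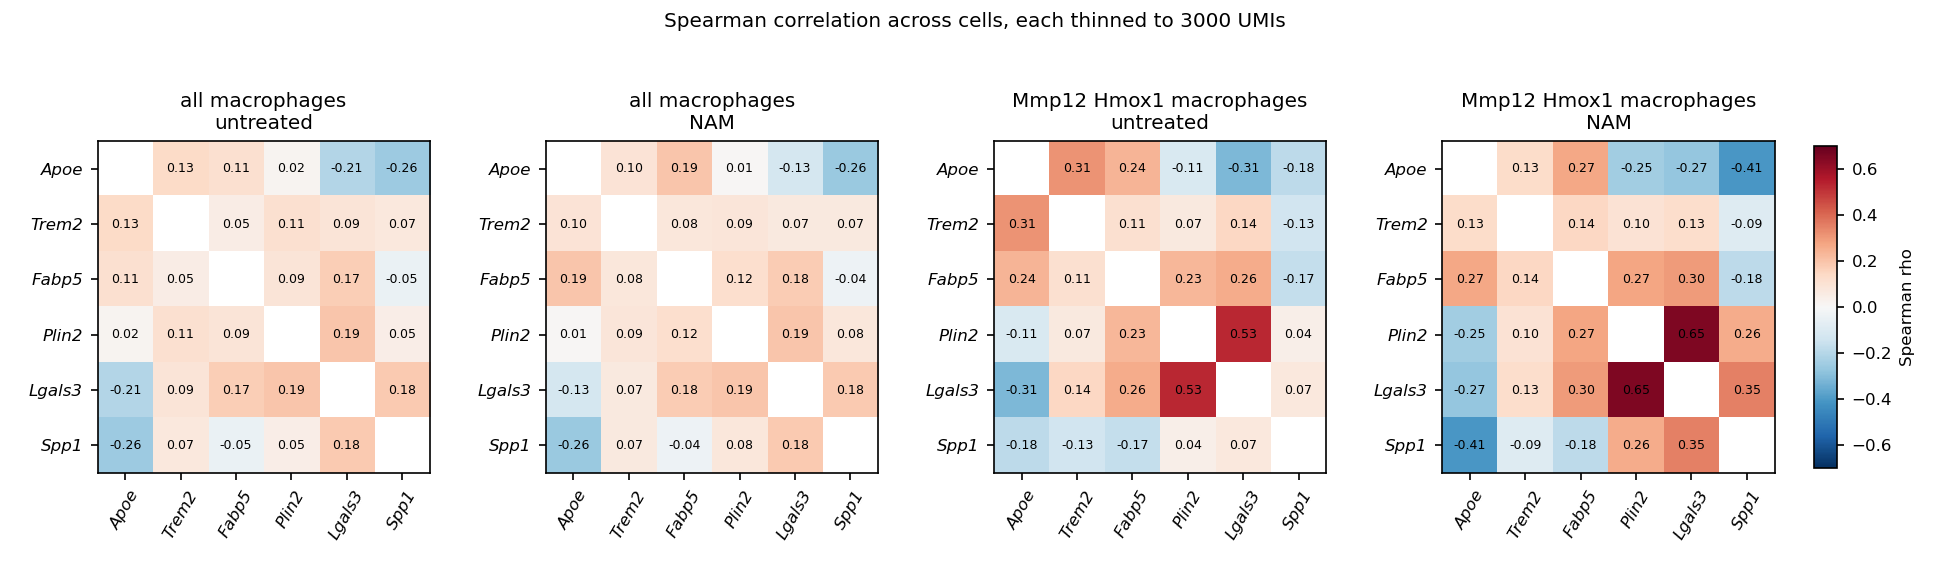
Spearman's rho between pairs of 6 members (both axes) across cells thinned to 3000 UMIs, for all macrophages and Mmp12 Hmox1 macrophages of each library; colour and printed values give rho. Apoe is negative with Spp1 and Lgals3 in all 4 panels, and Plin2 with Lgals3 is the strongest pair in the Mmp12 Hmox1 gate, at 0.53 and 0.65.

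In Ly6c2 monocytes, Trem2 marked cells with more Spp1. Monocytes with a Trem2 UMI (40 of 174 untreated, 38 of 191 NAM) had on average 16 and 4.26 Spp1 UMIs of 3000, and those without had 1.88 and 2.08. Apoe was 17.1 and 17.3 in cells with a Trem2 UMI and 10.9 and 13.3 in those without. Plin2 did not follow, at 1.45 and 2.24 against 1.78 and 2.00. The Spp1 means rest on 18 and 12 monocytes with 10 or more UMIs, of which 72.2% and 33.3% had a Trem2 UMI.

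The genes whose levels over the 10 gates and both libraries were most like those of Trem2, by Pearson correlation of log2(CPM + 1) over 20 points among 6987 genes with at least 500 UMIs, were Blvrb (0.96), Camk1 (0.95), Fez2 (0.94), Mmp14 (0.93) and Mcfd2 (0.93). Blvrb, biliverdin reductase B, ran from 10.1 CPM in untreated type 1 dendritic cells to 287 CPM in untreated Mmp12 Hmox1 macrophages. Mmp14, a membrane-bound matrix metalloproteinase, was highest in osteoclast-like cells, at 308 and 259 CPM. Among the members, Apoe ranked 84th with 0.84. Lpl ranked 781st, Plin2 800th, Lgals3 1021st, Fabp5 1354th, Spp1 2308th and Cd36 2754th. Many genes outside the list were therefore closer to Trem2 across these gates than most of its partners.

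The second question was whether the members differed between the NAM and the untreated library. A member was counted as past the fold when its CPM ratio was over 1.5 in either direction and it had at least 50 UMIs over both libraries in the gate. In all macrophages 9 members had enough UMIs. None was higher and 1, Lpl, was lower in the NAM library, against 1.64% of 10780 genes higher and 5% lower. At a lower minimum (0.32 on the log2 scale, either direction) Fabp4 and Lgals3 were also past it, 3 of 9 in all, against 20% of genes. The median log2 ratio (NAM over untreated) was 0.02 for the 9 members and -0.04 for all genes.

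Trem2 had a log2 ratio of -0.02 (-0.06 to 0.02) in all macrophages. Fabp5 had 0.02 (-0.03 to 0.07), Plin2 0.05 (-0.0008 to 0.10), Spp1 0.02 (-0.02 to 0.06), Cd36 0.04 (-0.14 to 0.23) and Apoe -0.09 (-0.10 to -0.08). These intervals hold the sampling of UMIs and no difference between mice, which were pooled. Fabp4 had 0.34 (-0.10 to 0.79), but 1 NAM cell held 43.8% of its 105 UMIs, and without the cells at 3 or more thinned UMIs the levels were 3.39 and 2.55 CPM, the opposite direction. In the remaining macrophages, the largest gate, Spp1 (-0.25, -0.30 to -0.20), Plin2 (-0.13, -0.19 to -0.07) and Fabp5 (-0.13, -0.20 to -0.05) were lower in the NAM library, so their pooled values near 0 join gates of unequal ratios and cell numbers.

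Lgals3 was the abundant member with the largest ratio in all macrophages, 0.40 (0.38 to 0.42), which was 1.32-fold and below the fold used for counting. It was higher in the NAM library in each of the 4 macrophage gates, by 0.43 (0.37 to 0.50) in Vcam1 Dnase1l3 macrophages, 0.27 (0.24 to 0.30) in the remaining macrophages, 0.27 (0.21 to 0.32) in proliferating and 0.17 (0.13 to 0.21) in Mmp12 Hmox1 macrophages. Under 9 alternatives it stayed above 0 in these gates, between 0.019 and 0.35 in proliferating and between 0.10 and 0.62 in Mmp12 Hmox1 macrophages, where it was past the fold under 1. The ratio over all macrophages was larger than in 3 of its 4 gates, and the Mmp12 Hmox1 gate, where Lgals3 was highest, held 93 untreated and 158 NAM cells. Osteoclast-like cells went the other way, at -0.15 (-0.22 to -0.08), and lymphocytes were at -0.09 (-0.24 to 0.05). Summed neutrophil markers (all 5 detected) were 65.0 and 75.8 CPM in all macrophages, and 4 and 5 of 5 epithelial markers (Cldn4 at 0 in the untreated library) summed to 9.49 and 13.7 CPM. The 4 mast cell markers summed to 8.68 and 14.7 CPM and the 4 fibroblast markers to 12.5 and 18.0 CPM, whereas the 4 endothelial markers were at 23.3 and 22.5 CPM. The part of these cells in the Lgals3 ratio was not tested.

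Lpl was lower in the NAM library in the remaining macrophages, with 21.2 and 11.2 CPM and a log2 ratio of -0.92 (-1.20 to -0.64), where 1 of 8 members was lower and none higher, against 5.29% and 1.94% of genes. In Vcam1 Dnase1l3 macrophages it was 15.6 and 6.83 CPM (42 and 18 UMIs), a ratio of -1.19 (-2.08 to -0.36) that lay between -1.32 and 0.50 under 9 alternatives and turned its sign with doubled gate minimums. It was also lower in Mmp12 Hmox1 macrophages, with 39.6 and 10.4 CPM (45 and 20 UMIs) and a ratio of -1.93 (-2.77 to -1.14). Proliferating macrophages had 26.8 and 32.4 CPM, a ratio of 0.27 (-0.15 to 0.70), so the gates did not share a direction. In osteoclast-like cells, where the gene was highest, the ratio was -0.58 (-0.76 to -0.40), just inside the fold. Over all macrophages the ratio was -0.71 (-0.92 to -0.50) and lay between -0.72 and -0.45 under 9 alternatives, of which 6 kept it past the fold. The 5 richest of the 1993 untreated macrophages held 23.6% of the Lpl UMIs.

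The osteoclast-like cells held less of every member with enough UMIs in the NAM library. Of 7 members, Spp1 (291 and 131 CPM, ratio -1.15, -1.38 to -0.93) and Fabp5 (74.3 and 37.9 CPM, ratio -0.97, -1.42 to -0.53) were past the fold, against 6.39% of 5653 genes lower and 2.67% higher. Apoe was at -0.58 (-0.66 to -0.50), Plin2 at -0.40 (-0.72 to -0.08) and Trem2 at -0.30 (-0.46 to -0.13). The median over the 7 members was -0.58 and over all genes 0.00. Apoe, Spp1 and Fabp5 in this gate lay below their levels in all macrophages. Spp1 (265 to 318 and 115 to 149 CPM) was above the mature dendritic cells, but with NAM it overlapped with type 1 dendritic cells (71.2 to 135 CPM). It was not above lymphocytes with under 10 Spp1 UMIs after thinning (324 and 268 CPM). Fabp5 was not above its lymphocyte level (82.7 and 108 CPM). The part of free RNA in these ratios was not tested.

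Ly6c2 monocytes held less Spp1 and Fabp5 in the NAM library. Spp1 was 2168 CPM (2082 to 2256) and 963 CPM (906 to 1023), a ratio of -1.17 (-1.28 to -1.07), and Fabp5 was 116 and 69.7 CPM, a ratio of -0.74 (-1.17 to -0.32) that reached -0.50 and was inside the fold under 2 of 9 alternatives. The monocyte levels of Fabp5 (97.2 to 138 and 55 to 87.1 CPM) were not above those of lymphocytes (67.8 to 99.8 and 92.3 to 126 CPM), although they were above those of Cd209a dendritic cells (22.6 to 76.6 and 3.65 to 34.3 CPM). The part of free RNA was not tested. In all 2 of 8 members were lower, against 8.65% of 4068 genes, and none was higher, against 5.88%. Cells with 10 or more Spp1 UMIs were 10.3% (6.25 to 15.9) of the untreated monocytes and 6.28% (3.29 to 10.7) of those with NAM, intervals that overlap, and the remaining monocytes held 416 CPM (376 to 458) and 365 CPM (329 to 403). Most of the Spp1 difference in monocytes lay in those 18 and 12 cells. Apoe (0.18, 0.12 to 0.24), Plin2 (0.23, 0.07 to 0.40) and Lgals3 (0.22, 0.15 to 0.29) were higher in the same NAM cells by less than the fold.

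Spp1 was also lower in the NAM library outside these gates. In lymphocytes it was 1266 and 440 CPM, a ratio of -1.53 (-1.66 to -1.40), as the only 1 of 5 members past the fold, against 6.97% of genes lower and 3.92% higher. Without the 19 and 10 Spp1-rich cells the lymphocytes held 324 CPM (292 to 358) and 268 CPM (242 to 296), which differed by less than the fold. Cd209a dendritic cells had 186 and 56.9 CPM (51 and 17 UMIs), a ratio of -1.71 (-2.60 to -0.90), as 1 of 3 members and with none higher, against 11.4% of genes lower and 5.19% higher. The monocyte marker Ly6c2 was also lower in this gate, with 625 and 63.6 CPM (171 and 19 UMIs), as was Hmox1 with 117 and 20.1 CPM, and their part in the Spp1 ratio was not tested. Type 1 dendritic cells had 167 and 99.2 CPM, a ratio of -0.75 (-1.35 to -0.17), as 1 of 4 with none higher, against 6.88% lower and 10.9% higher. Under 9 alternatives that ratio lay between -0.97 and 0.069, and its sign turned without the 2.5% of cells with most UMIs and without the 5 highest cells. No Cd209a or type 1 dendritic cell had 10 or more Spp1 UMIs after thinning. In both libraries the levels of both gates were below those of lymphocytes without their Spp1-rich cells. The part of free RNA in their ratios was not tested. Mature dendritic cells, with 0 and 22.3 CPM, had too few Spp1 UMIs for a ratio.

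Vcam1 Dnase1l3 macrophages went the opposite way for Spp1, with 78.8 and 142 CPM and a ratio of 0.85 (0.60 to 1.10). Here 1 of 7 members was higher and 1, Lpl, lower, against 2.47% and 6.85% of genes. A single NAM cell held 62.8% of the 374 Spp1 UMIs of the gate, and without the cells at 10 or more UMIs the levels were 65.4 CPM (56.1 to 75.8) and 53.5 CPM (44.9 to 63.1). The direction in this gate therefore rested on 1 cell.

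In the Mmp12 Hmox1 macrophages, where 5 members peaked in both libraries, Lpl was past the fold, as 1 of 9 members lower and none higher, against 5.74% of 5039 genes lower and 5.24% higher. Its ratio lay between -2.25 and 0.59 under 9 alternatives, of which 8 kept it past the fold. Cd36 had 80 and 104 UMIs from 93 and 158 cells, a ratio of -0.38 (-0.82 to 0.06). Trem2 was at 0.05 (-0.09 to 0.19), Plin2 at 0.06 (-0.05 to 0.18), Spp1 at 0.01 (-0.07 to 0.08) and Fabp5 at -0.28 (-0.40 to -0.16) there. Under 9 alternatives Fabp5 lay between -0.31 and 0.33, Cd36 between -0.42 and 0.55, Spp1 between -0.26 and 0.83 and Plin2 between -0.03 and 0.61, with Spp1 past the fold under 2 and Plin2 under 1. Fabp4, on 36 and 65 UMIs, was at 0.09 (-0.52 to 0.72). It lay between -0.53 and 2.34 and was past the fold under 1. The directions of these members in this gate therefore depended on the cells counted. Proliferating macrophages had no member of 8 past the fold, against 2.3% of genes higher and 4.55% lower. With gating on thinned counts Lpl was at 2.79 there and Spp1 turned from 0.16 to -0.74, and Lpl was past the fold under 3 of 9 alternatives. Mature dendritic cells had Fabp5 higher (0.66, 0.15 to 1.17) and Lgals3 lower (-0.87, -1.46 to -0.30) of 3 members, against 9.34% and 8.48% of 578 genes, on 12 and 14 cells. The Fabp5 ratio lay between 0.079 and 0.72 under 9 alternatives, of which 7 kept it past the fold, and the Lgals3 ratio between -1.42 and -0.36, with 8 past the fold and the call lost without the 5 highest cells.

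**Figure D4:**
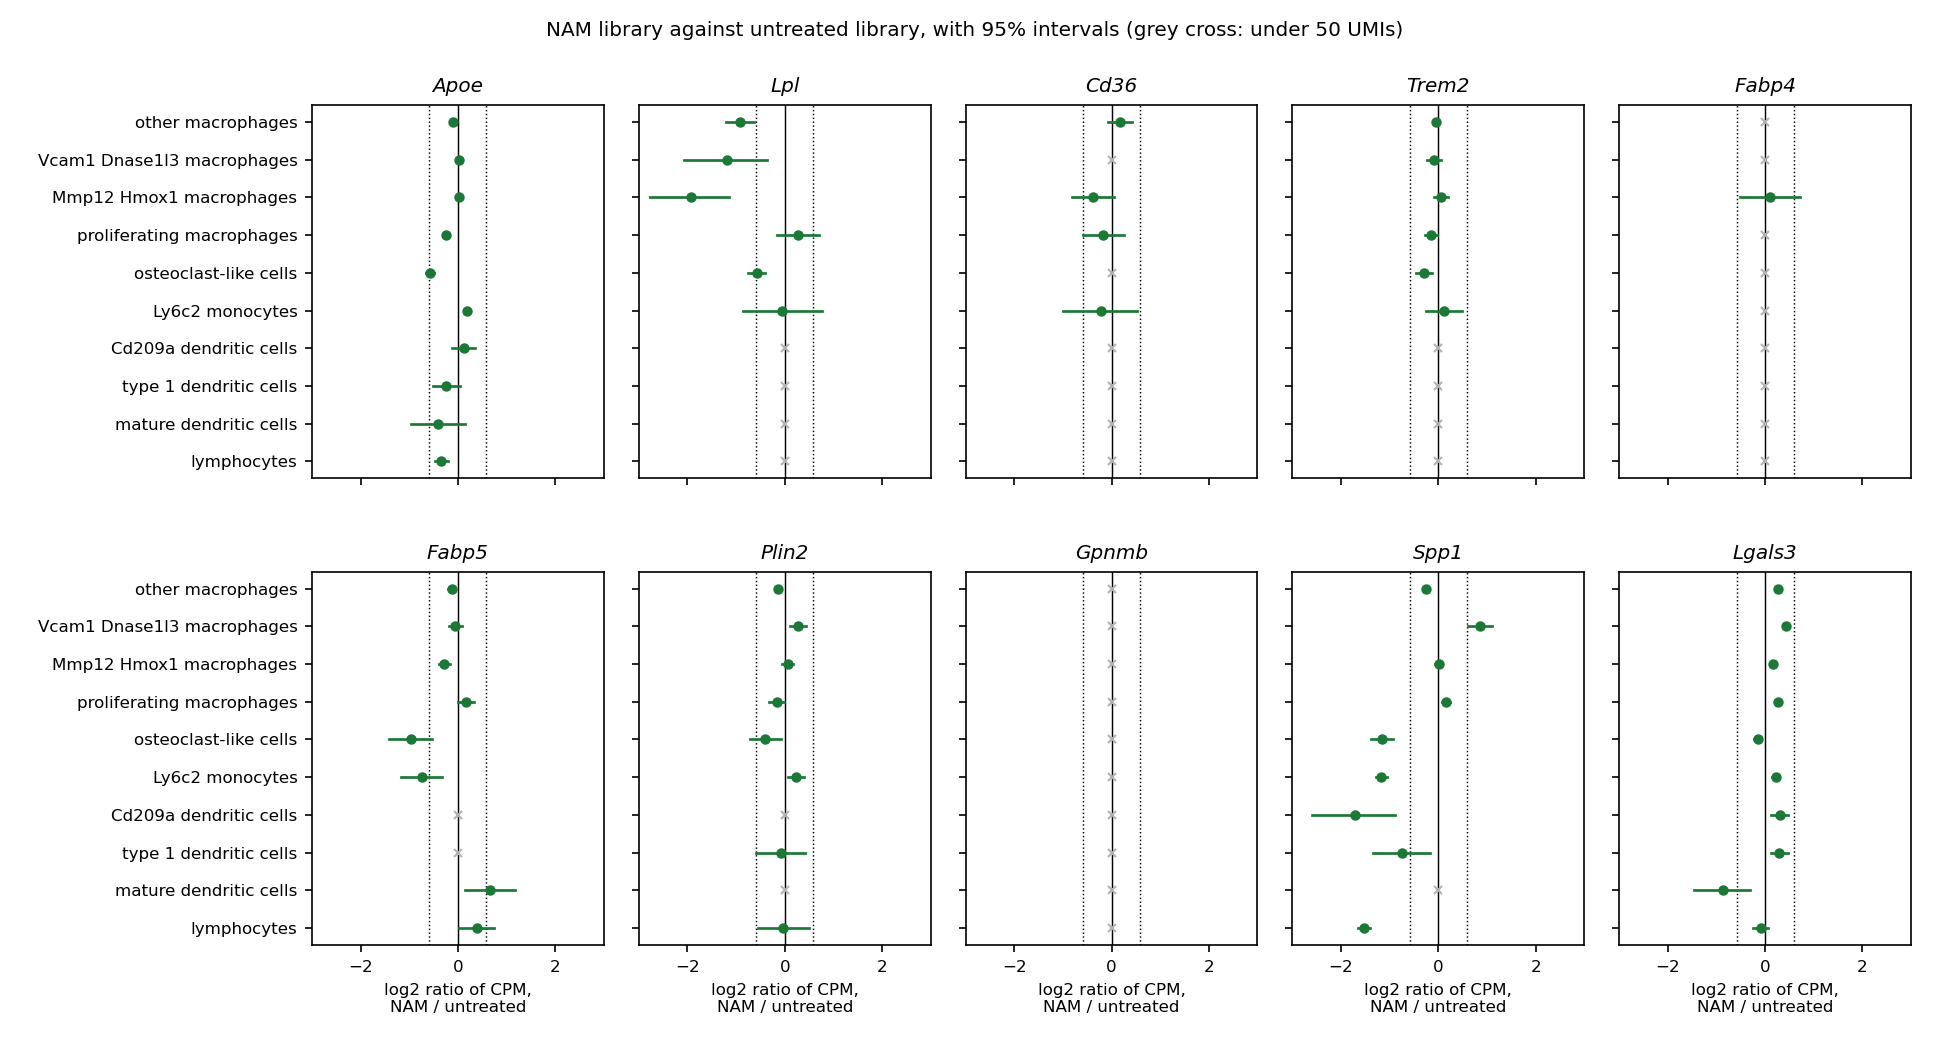
Log2 ratio of CPM, NAM over untreated (horizontal axis), for each member in 10 gates, with 95% conditional binomial intervals; dotted lines mark 1.5 fold and grey crosses mark members with under 50 UMIs. Trem2 lies inside the dotted lines in every gate with enough UMIs, and Spp1 lies left of them in osteoclast-like cells, Ly6c2 monocytes, Cd209a and type 1 dendritic cells and lymphocytes.

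Over the 9 myeloid gates that share no cell, 57 of 90 pairs of member and gate had enough UMIs and 12 were past the fold, 10 lower and 2 higher in the NAM library. Of the 43074 pairs of any gene and gate with enough UMIs, 6.23% were lower and 3.54% higher. Under all 9 alternatives 5 of the 12 stayed past the fold on the same side: Lpl in the remaining macrophages, Spp1 in osteoclast-like cells, Ly6c2 monocytes and Cd209a dendritic cells, and Fabp5 in osteoclast-like cells. No alternative was built to leave out all Spp1-rich cells. Without the 18 and 12 in Ly6c2 monocytes, Spp1 was at 416 and 365 CPM, inside the fold. Spp1 in osteoclast-like and Cd209a dendritic cells and Fabp5 in osteoclast-like cells were not above their lymphocyte levels. Trem2 was past the fold in none of these gates, also under the 9 alternatives. With a minimum of 10 UMIs it was past it in Cd209a dendritic cells, on 10 and 7 UMIs (-0.64, -2.27 to 0.90). Apoe was past it in no gate either, but its ratio in osteoclast-like cells reached -0.74 and was past the fold under 4 of the alternatives, and in type 1 dendritic cells it reached -1.20 and was past the fold under 2. In Cd209a dendritic cells its ratio of 0.12 turned to -0.78 with gating on thinned counts. Of the 45 pairs inside the fold, 14 were past it in either direction under at least 1 alternative. At the lower minimum of 0.32 there were 18 pairs. In the remaining macrophages 1 of 8 members passed it, against 21.3% of genes, in Vcam1 Dnase1l3 macrophages 3 of 7 against 29.4%, in Mmp12 Hmox1 macrophages 2 of 9 against 32.9%, and in proliferating macrophages 0 of 8 against 24.8%. In osteoclast-like cells 5 of 7 passed it, against 29.1%, and in Ly6c2 monocytes 2 of 8, against 37.5%. The dendritic gates had 1 of 3 (Cd209a, against 40.9%), 1 of 4 (type 1, against 42.5%) and 3 of 3 (mature, against 41.9%).

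The wider pathway was read from 7 lists of genes in all macrophages. Of 71 listed genes with enough UMIs 10 were past the fold, 8 lower and 2 higher, against 5% of the 10780 genes lower and 1.64% higher. Each list's counts below stand beside these same shares. Of 8 genes listed for Trem2 signalling none was past it. Tyrobp, the adaptor of Trem2, had 2500 and 2740 CPM (ratio 0.13, 0.12 to 0.15), and Spi1, the transcription factor PU.1, had 486 and 514 CPM (0.08, 0.04 to 0.12). Dap, which is on this list, encodes a death-associated protein and not an adaptor, and stood at 0.02 (-0.08 to 0.12). The list's median of -0.03 was next to the -0.04 of all genes.

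Other genes of lipid-associated macrophages split in both directions, with 1 of 16 higher, 2 lower and a median of -0.09. Mmp12, a macrophage elastase and a marker of the gate above, was higher in the NAM library with 165 and 313 CPM (0.92, 0.87 to 0.98). Igf1, a growth factor of resident-type macrophages, was lower with 25.5 and 9.17 CPM (-1.48, -1.71 to -1.24), and Apoc1, an apolipoprotein, was lower on 36 and 14 UMIs (-1.50, -2.51 to -0.58). Cathepsin B (Ctsb, -0.18, -0.19 to -0.16), Lgals1 (0.10, 0.08 to 0.11) and Cd63 (0.15, 0.12 to 0.17) were inside the fold.

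Genes of sterol efflux and sterol synthesis had 1 gene past the fold in each list. Of 10 LXR targets and partners 1, the cholesterol exporter Abcg1, was lower with 33.6 and 20.9 CPM (-0.69, -0.86 to -0.52), and its relative Abca1 had -0.41 (-0.51 to -0.31), with a list median of -0.17. Of 9 sterol synthesis genes 1, Insig1, which holds SREBP in the endoplasmic reticulum, was lower with 48.2 and 21.8 CPM (-1.14, -1.30 to -0.99), and Srebf2 had -0.19 (-0.39 to 0.01), with a median of -0.22. Fdps, an enzyme of the same pathway, was at 0.19 (0.06 to 0.33).

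Scavenger receptors had 3 of 9 genes lower, against 5% of all genes, and a median of -0.10. Olr1, a receptor for oxidised lipoprotein, had 6.53 and 2.81 CPM (-1.22, -1.67 to -0.78), the haemoglobin receptor Cd163 29.8 and 15.5 CPM (-0.94, -1.14 to -0.75), and the mannose receptor Mrc1 355 and 236 CPM (-0.59, -0.64 to -0.54). Msr1, also a scavenger receptor, was at 0.25 (0.21 to 0.30). Of 9 genes of PPAR and fatty acid oxidation 1, Angptl4, an inhibitor of Lpl, was lower on 34 and 24 UMIs with an interval that held 0 (-0.64, -1.46 to 0.15), and the oxidation enzymes Acadl, Hadha and Acadm lay between -0.04 and 0.11. Of 10 droplet and triglyceride genes 1, the lipolysis inhibitor G0s2, was higher with 6.68 and 10.2 CPM (0.61, 0.30 to 0.92), whereas Hilpda, also an inhibitor of lipolysis, was at -0.15 (-0.20 to -0.10).

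**Figure D5:**
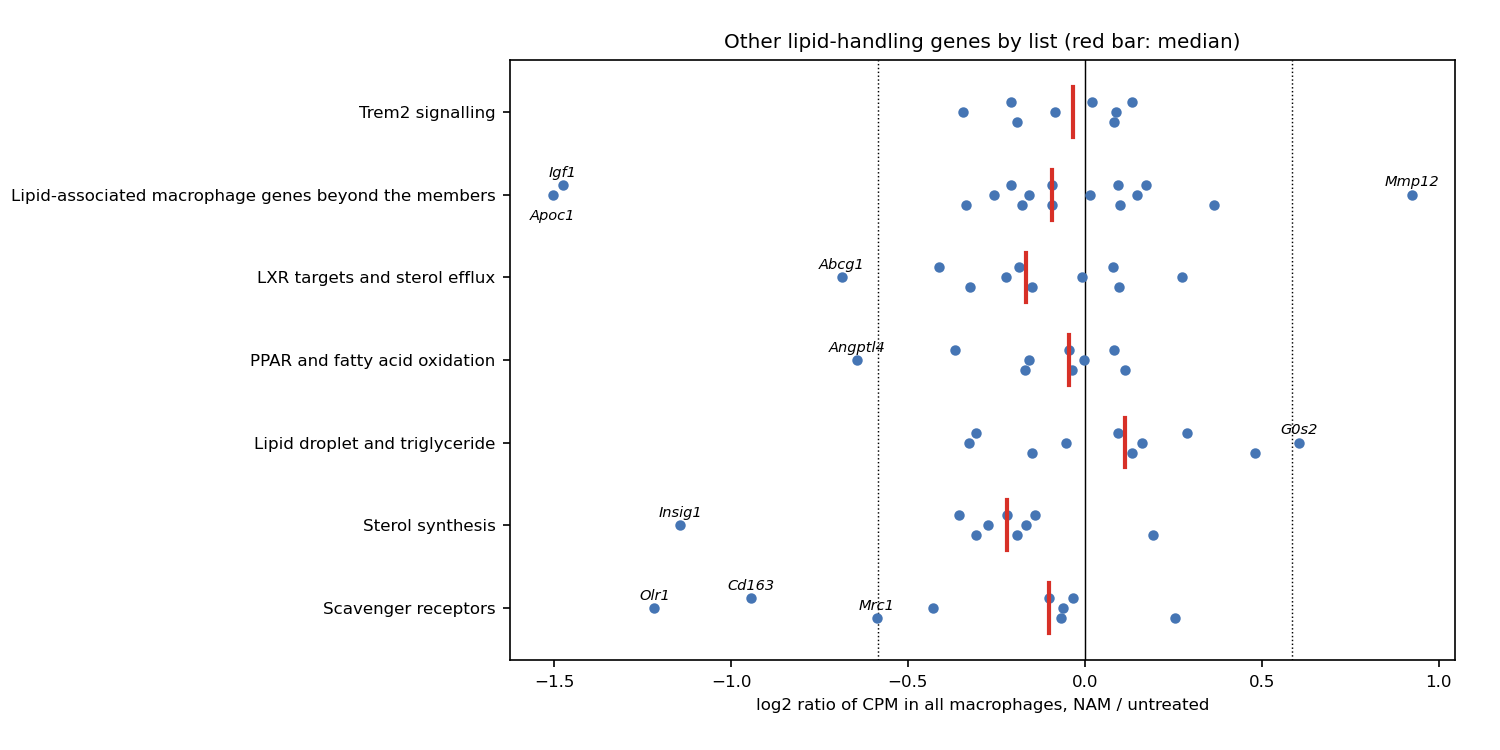
Log2 ratio of CPM in all macrophages, NAM over untreated (horizontal axis), for the genes of 7 lists with 50 or more UMIs; each point is a gene, red bars are list medians, dotted lines mark 1.5 fold, and genes past it are named. List medians lie between -0.22 and 0.11, and 8 of the 10 named genes are lower in the NAM library.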

How the data were processed

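The authors ran Cell Ranger on reads from version 2 of the 10x 3′ kit, with mm10 as the genome, and deposited raw UMI counts per gene and cell, which were used here; the scaled and log-transformed values of their own analysis were not used. The members and lists were chosen with earlier results of these data known. Minimum marker UMIs of the gates were set after the distributions of the marker UMIs, and not the members, had been seen: 20 for C1qa, C1qb and C1qc together in macrophages, fewer in all other myeloid gates. Myeloid gates allowed 1 UMI of lymphocyte markers, cells in both macrophage subsets (6 and 22) entered neither, and 352 and 414 cells were in no gate. Planned markers that are not reported here were left out of the gates and the lists after the data had been seen. No doublets were removed. UMIs were summed per gate and library and divided by the gate's total to give CPM (exact Poisson intervals). Ratios carry conditional binomial and shares Clopper-Pearson intervals. Each cell was thinned to 3000 UMIs (seed 1). Named genes were the members, listed genes past 1.5 fold in macrophages with up to 3 more per list by UMIs, and the 5 genes most like Trem2. Of 78 listed symbols, 76 were in the files. The ratio step was tested on simulated counts. Positions came from GENCODE vM21 by symbol. Spp1 overlaps Gm42793 on the same strand, so their reads may not be separable. Python 3.11.15, NumPy 2.4.6, SciPy 1.17.1 and pandas 2.3.3 were used. Alternatives changed the gates, scaling, weight of cells, cells left out, fold and minimum UMIs; those with 40 C1q UMIs and without shared barcodes were added after seeing the data.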

Additional observations from a re-analysis of the deposited data

Results flagged for a closer look

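Fabp5 and Spp1 had log2 ratios (NAM over untreated) of opposite sign in different gates, each past 1.5 fold. Fabp5 was at 0.66 in mature dendritic cells, and at -0.97 in osteoclast-like cells and -0.74 in Ly6c2 monocytes, where 2 of 9 alternatives left it inside the fold. Spp1 was at 0.85 in Vcam1 Dnase1l3 macrophages, and at -1.15 in osteoclast-like cells, -1.17 in Ly6c2 monocytes, -1.71 in Cd209a dendritic cells and -0.75 in type 1 dendritic cells. With 1 library per group these differences between gates were not tested. The positive Spp1 value rested on 1 cell, and the positive Fabp5 value, on 59 and 76 UMIs, was inside the fold at 0.079 with gating on thinned counts and at 0.45 as a mean over cells.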

How the results depend on the processing

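Of 639 values computed under the alternatives, 519 stayed within their interval, 113 moved out of it, and 7 of pairs that were past the fold turned their sign. The count of 12 pairs of member and gate past the fold was 6 without the 5 highest cells, 18 at a lower fold (log2 of 0.32) and 21 with 10 or more UMIs. In all macrophages the count of 1 (Lpl) was 0 with gating on thinned counts, without the 5 highest cells and with 40 C1q UMIs, and 3 at the lower fold. The share of untreated macrophages with a Trem2 UMI was 64.1% thinned and 88.0% unthinned, and rho of Trem2 and Lgals3 was 0.09 thinned and 0.16 unthinned. Spp1 in Vcam1 Dnase1l3 macrophages turned to -0.29 with gating on thinned counts, -0.58 without the 2.5% of cells with most UMIs and -0.24 without the 5 highest cells. In type 1 dendritic cells it turned to 0.069 and 0.031 under the last 2 of these. Lpl in Vcam1 Dnase1l3 macrophages turned to 0.50 with doubled gate minimums, and in Mmp12 Hmox1 macrophages to 0.59 with gating on thinned counts; the cause was not tested. The count of 5 members that peaked in the Mmp12 Hmox1 gate in both libraries was 8 with doubled gate minimums and between 4 and 6 otherwise. No paired analysis was possible because there was 1 library per group. Depth limits Gpnmb, Fabp4, Lpl and Cd36 and all values of the dendritic gates, which hold few cells.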
